A study of Mus musculus with 8 samples.

Results

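Matrix metalloproteinases (MMPs) are zinc-dependent endopeptidases that cleave the collagens, proteoglycans and glycoproteins of the extracellular matrix. They are made as inactive proenzymes, opened by other proteases and held in check by the tissue inhibitors of metalloproteinases (TIMPs). In articular cartilage, collagenases cut the type II collagen fibril and stromelysins cut proteoglycans and activate other proenzymes, and both groups are known for their part in osteoarthritis. The transcripts of 10 MMP genes were followed here: the stromelysins Mmp3 and Mmp10, the collagenases Mmp13 and Mmp8, the gelatinases Mmp2 and Mmp9, the macrophage elastase Mmp12, the membrane-anchored Mmp14, and Mmp11 and Mmp19. They were chosen by gene symbol from the 54658 genes of the count table, and each symbol matched 1 gene.

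Bulk RNA-Seq was done on primary murine articular chondrocytes taken from femoral head cartilage of wild-type mice at an age of 3 weeks, a culture model that has left its native matrix by collagenase digestion. Cells were grown in high-glucose DMEM with fetal bovine serum and given either IL-1β, a proinflammatory cytokine, at 1 ng/mL or vehicle for 24 h. Each group had 4 samples. Neither labels nor methods say whether these came from separate mice or cultures, so p-values measure the spread between these samples, which may be technical. Totals per sample ran from 10992355 to 17104351 counts with IL-1β and from 13970959 to 17456063 with vehicle, and 3 counts, taken as the floor of detection, corresponded to 0.174 to 0.271 CPM (counts scaled to the depth of each sample). All 18 chondrocyte markers passed the filter on low counts. Their summed level was 6704 to 7245 CPM with IL-1β and 18350 to 18990 CPM with vehicle. At an adjusted p below 0.05 by edgeR, 17 markers were lower and 1 (Prg4) higher, beside 19.8% of all genes tested that were lower and 20.4% higher.

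Genes that exceeded 1 CPM in at least 4 of the 8 samples, 14404 in all, entered the quasi-likelihood test of edgeR. Genes with an absolute log2 fold change over 1 and an adjusted p under 0.05 are named differentially expressed genes (DEGs). Across all genes tested, 5.21% were DEGs, 2.86% higher and 2.35% lower with IL-1β. Of the 10 MMPs, 6 passed the filter (Mmp2, Mmp3, Mmp11, Mmp12, Mmp13 and Mmp14) and 4 did not (Mmp8, Mmp9, Mmp10 and Mmp19). Mmp3, Mmp13 and Mmp12 were DEGs, all higher with IL-1β. Mmp12 passed the filter only through its IL-1β samples (2.68 to 3.63 CPM, against 0.143 to 0.396 CPM with vehicle). Without the fold threshold, Mmp2 also rose and Mmp11 fell, beside 20.4% of genes tested that rose and 19.8% that fell at an adjusted p below 0.05. Mmp14 did not pass the test. In bulk samples, a change in the number of cells making a transcript and a change in the amount per cell cannot be told apart.

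**Figure D1:**
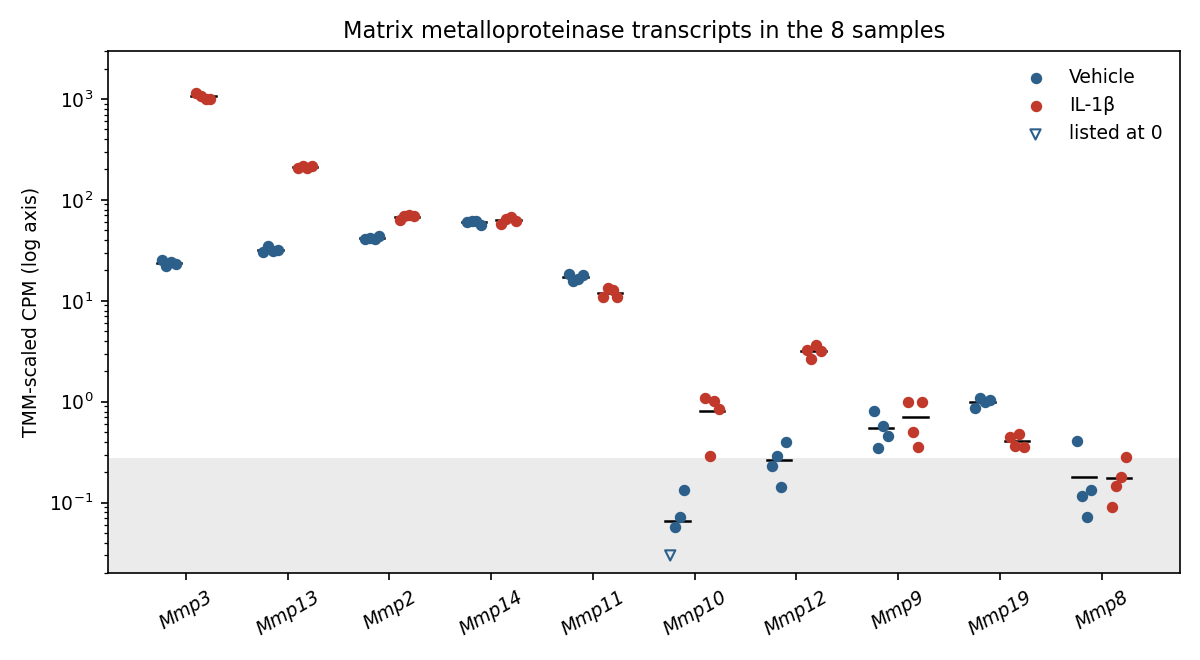
TMM-scaled CPM (log axis) of each MMP transcript in the 4 vehicle (blue) and 4 IL-1β (red) samples, with 1 point per sample and a black line at each group mean. The grey band lies below the highest 3-count floor of 0.271 CPM, and the triangle marks the vehicle sample in which Mmp10 was listed at 0. Mmp3, Mmp13, Mmp12 and Mmp10 sit higher with IL-1β in every sample, while the groups overlap for Mmp14, Mmp9 and Mmp8.

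To show what lies just upstream of the induced genes, matches to AP-1, the binding motif of FOS and JUN dimers long described in MMP promoters, were searched as TGANTCA on both strands of the RefSeq promoters of assembly GRCm38.p6, each running from 250 bases before to 50 bases after the start site. Of the 10 MMPs, 7 had a promoter in that set, with 8 promoters in all because Mmp12 has 2 start sites. Mmp2, Mmp9 and Mmp19 had none there and were not searched. A match was found in 4 of the 7: Mmp3, Mmp10, Mmp12 (at its second start) and Mmp13. Each is shown with 10 bases to either side, on the + strand of chromosome 9 (chr9:7445766-7445792 for Mmp3, chr9:7502269-7502295 for Mmp10, chr9:7347320-7347346 for Mmp12 and chr9:7272469-7272495 for Mmp13), with the AP-1 match in capitals.
Mmp3: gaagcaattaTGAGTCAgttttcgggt
Mmp10: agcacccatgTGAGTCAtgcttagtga
Mmp12: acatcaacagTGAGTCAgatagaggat
Mmp13: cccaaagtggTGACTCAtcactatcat
TGANTCA is the same pattern on either strand, so the strand of a match carries no information.

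The AP-1 match began 46 bases before the start site in Mmp3, 63 in Mmp10, 44 in Mmp12 and 35 in Mmp13. A TATAAA match, the letters of the TATA box, lay downstream of it in all 4. It began 7 bases before the start site in Mmp3, 29 in Mmp10 and 16 in Mmp13, but 4 bases after the second start of Mmp12. Whether these letters act as a TATA box was not tested. Among 32851 promoters of the same length, 7.81% held an AP-1 match, 13.6% a TATAAA match and 1.54% both. No AP-1 match was found in these windows of Mmp8, Mmp11 or Mmp14, and the first start of Mmp12 had neither motif. The pairing of both motifs was not limited to MMPs that were detected. Of 11 other MMP genes with a promoter, Mmp1a, Mmp1b, Mmp7 and Mmp20 held both. Mmp1a, Mmp7 and Mmp20 had 0 counts in every sample and Mmp1b had 2 counts in all.

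Matches to other motifs were more scattered. AGGAAG, a core of ETS factor sites found in 35.4% of promoters, occurred in Mmp3, Mmp8, Mmp13, Mmp14 and the first start of Mmp12. TGTGGT, the RUNX core found in 16.8%, occurred in Mmp13 and Mmp14. The NF-κB consensus, found in 8.46%, had a match among these genes only at the first start of Mmp12, 129 bases before it. No match to one motif overlapped a match to another in these promoters. A match is a description of letters and was not tested for binding.

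**Figure D2:**
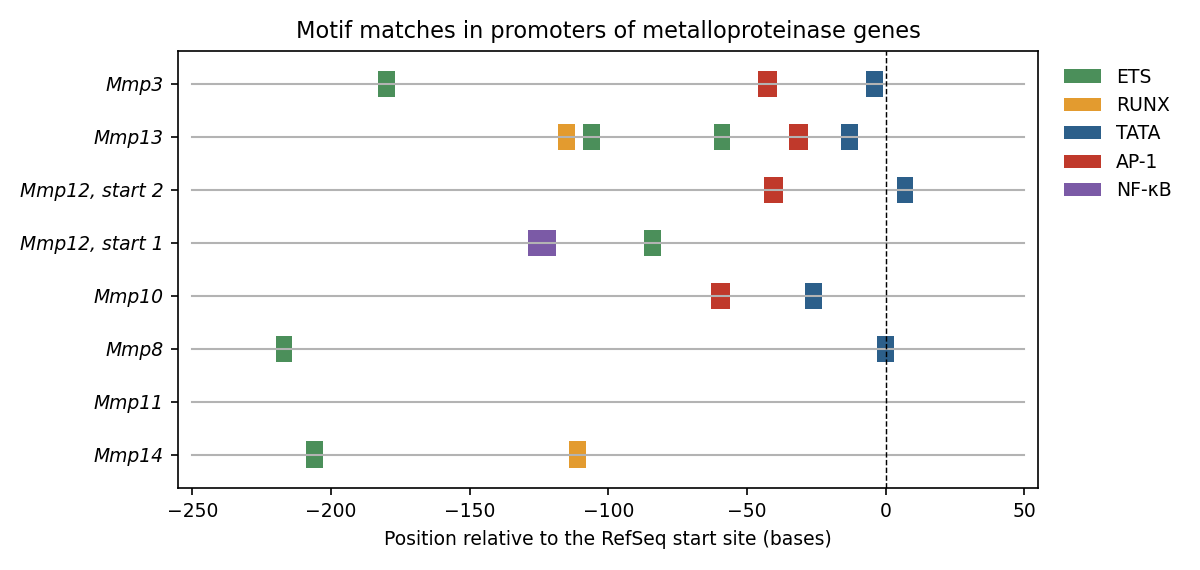
Positions of motif matches, in bases from the RefSeq start site (dashed line), in the 8 promoters of 7 MMP genes, each drawn from 250 bases before to 50 bases after the start. AP-1 (red) appears within 63 bases of the start in Mmp3, Mmp10, Mmp13 and the second start of Mmp12, each time followed by TATAAA (blue).

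Mmp3 (stromelysin 1, ENSMUSG00000043613.8, GRCm38 chr9:7445822-7455975, + strand) showed the steepest rise of the MMPs tested. Its level was 1147, 1079, 1004 and 1002 CPM in the IL-1β samples and 25.2, 22.0, 24.5 and 22.9 CPM with vehicle. The lowest IL-1β sample was far above the highest vehicle sample. The group means were 1058 ± 69.3 and 23.6 ± 1.48 CPM (SD, n = 4 each), and edgeR gave a log2 fold change of 5.48 (SE 0.0506, adjusted p = 1.12e-33), a 44.8-fold difference that ranked 10 among all genes tested. Ordered by mean CPM, Mmp3 moved from rank 6181 of the genes tested with vehicle to rank 65 with IL-1β.

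Mmp10 (stromelysin 2, ENSMUSG00000047562.3, chr9:7502352-7510240, + strand) is the closest relative of Mmp3 and was at the edge of detection. It had 12, 4, 17 and 12 counts with IL-1β and 0, 1, 1 and 2 counts with vehicle. All vehicle samples were at or under the 3-count floor and all IL-1β samples above it. Pooled over the samples and scaled to depth, the ratio was 12.8 with a 95% exact interval of 4.67 to 49.0 that covers counting error only. In the edgeR fit without the filter, where 17.9% of 32379 genes had an adjusted p below 0.05, Mmp10 rose with a log2 fold change of 3.51 (SE 0.594, adjusted p = 5.36e-08). The coding sequences of Mmp3 and Mmp10 were identical at 79.8% of the bases of the shorter one, and 8.37% of the 50-base words of Mmp10 also occurred in Mmp3. Reads from such stretches could be split between both genes, and their part in the counts of Mmp10 was not tested.

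Mmp13 (collagenase 3, ENSMUSG00000050578.10, chr9:7272514-7283331, + strand) is the main collagenase of cartilage in rodents. Its level was 209, 215, 206 and 217 CPM with IL-1β and 30.7, 35.2, 30.8 and 31.9 CPM with vehicle. The samples of each group lay close together and the groups were well apart. Mmp13 rose 6.57-fold, with a log2 fold change of 2.72 (SE 0.0400, adjusted p = 1.02e-28 by edgeR), and ranked 60 by fold change. Its transcript shared no 50-base word with another gene.

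The other collagenase, Mmp8 (neutrophil collagenase, ENSMUSG00000005800.3, chr9:7558456-7568485, + strand), was barely detected. It had 1, 2, 3 and 4 counts with IL-1β and 7, 2, 1 and 2 counts with vehicle. The groups overlapped and 6 of these 8 samples were at or under the floor, so a difference was not detectable at this depth. The pooled ratio was 0.949, with an interval of 0.367 to 2.40. Neutrophil markers were also at the floor: 10 of 12 had at most 3 counts in every sample, Ly6g and Mpo were at 0, and S100a8 and S100a9 reached 1 and 2 counts. Camp, a neutrophil granule peptide gene and the member of that list that was tested, rose from 0.144 to 1.26 CPM. Itgb2, a leukocyte integrin chain below the filter that was named after its values were seen, had 7 to 17 counts with IL-1β and 3 to 8 with vehicle.

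Among the gelatinases, Mmp2 (gelatinase A, ENSMUSG00000031740.8, chr8:92827291-92853420, + strand) was the abundant one. It was measured at 63.7, 69.1, 70.4 and 69.3 CPM with IL-1β and 40.7, 42.3, 40.6 and 43.8 CPM with vehicle. The groups did not overlap, and the rise was modest. The log2 fold change was 0.71 (SE 0.0432, adjusted p = 5.39e-14 by edgeR), a 1.63-fold difference that stayed below the DEG threshold.

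Mmp9 (gelatinase B, ENSMUSG00000017737.2, chr2:164940780-164955850, + strand) had 11, 7, 6 and 14 counts with IL-1β and 14, 6, 8 and 7 counts with vehicle. The groups overlapped. The pooled ratio was 1.24, with an interval of 0.760 to 2.01, and the unfiltered edgeR fit gave an adjusted p of 0.643. Mmp9 is abundant in osteoclasts, and among 8 osteoclast markers 5 had at most 3 counts in every sample and Dcstamp was at 0. Of markers named after their values were seen, Acp5 had 4 to 13 counts and Oscar 1 to 6, and Nfatc1, the member that was tested, rose from 85.8 to 100 CPM (log2 fold change 0.22, adjusted p = 9.7e-06 by edgeR).

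Mmp12 (macrophage elastase, ENSMUSG00000049723.14, chr9:7344381-7369499, + strand) degrades elastin and other matrix proteins. It was low but rose in every IL-1β sample. Counts were 36, 37, 61 and 45 with IL-1β and 4, 5, 2 and 6 with vehicle, or 3.19 ± 0.394 against 0.265 ± 0.106 CPM (SD, n = 4 each). The log2 fold change was 3.54 (SE 0.278, adjusted p = 1.31e-11 by edgeR), and the pooled ratio was 12.0 with an interval of 7.28 to 21.0. At this depth it was, like Mmp10, more than 10-fold higher by its point estimate, but the interval is wide. Of its exon bases, 2.17% overlap Mmp1b on the opposite strand.

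Because Mmp12 is known from macrophages, the macrophage markers are given beside it. Their summed level was 30.8 to 34.7 CPM with IL-1β and 15.6 to 18.5 CPM with vehicle. Of 16 markers, 8 had at most 3 counts in every sample, 1 (C1qb) was at 0 throughout, and 3 were tested. Cd14, a lipopolysaccharide coreceptor, rose from 3.86 to 14.0 CPM, and Cd68, a lysosomal protein, rose from 9.51 to 15.0 CPM. Lyz2, named after its value was seen, fell from 1.87 to 1.25 CPM. Of the other defining genes, Ptprc had 0 to 6 counts and Adgre1 0 to 3, while Csf1r, at 7 to 19 counts, was above the floor in every sample. The part of such cells in the Mmp12 counts was not tested.

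Mmp14 (membrane type 1 MMP, ENSMUSG00000000957.11, chr14:54431612-54445364, + strand) activates pro-MMP2 at the cell surface and is itself a collagenase. Its level was 57.1, 64.0, 67.5 and 62.0 CPM with IL-1β and 59.9, 61.9, 61.4 and 56.1 CPM with vehicle. The groups overlapped. The log2 fold change was 0.07 (SE 0.0466, adjusted p = 0.233 by edgeR), with a 95% interval of -0.02 to 0.16, so a change of the size of Mmp2's lies outside it.

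Mmp11 (stromelysin 3, ENSMUSG00000000901.17, chr10:75923222-75936496, - strand) is activated inside the cell by furin and has weak activity on matrix proteins. It moved the other way, at 10.9, 13.5, 12.7 and 10.8 CPM with IL-1β and 18.6, 15.8, 16.5 and 18.2 CPM with vehicle. The groups did not overlap. It fell with a log2 fold change of -0.52 (SE 0.0864, adjusted p = 1.25e-05 by edgeR), short of the DEG threshold. Its neighbour Chchd10 overlaps 5.58% of its exon bases.

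Mmp19 (ENSMUSG00000025355.7, chr10:128790910-128800824, + strand), which cleaves basement membrane proteins, had 5, 5, 8 and 5 counts with IL-1β and 15, 19, 14 and 16 counts with vehicle. The groups did not overlap. The pooled ratio was 0.409, with an interval of 0.242 to 0.668. In the unfiltered fit Mmp19 fell with a log2 fold change of -1.27 (SE 0.373, adjusted p = 0.00484 by edgeR). The genes Gm47093 and Tmem198b overlap 28.3% of its exon bases and 25.4% of its 50-base words occur in them, so its counts are uncertain.

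In all, the samples of the groups did not overlap for 5 of the 6 MMPs tested (Mmp2, Mmp3, Mmp11, Mmp12 and Mmp13), against 36.8% of all genes tested, and not for Mmp10 and Mmp19 below the filter. Of these, Mmp12 was tested only because its IL-1β samples passed the filter. For the 7 genes without overlap, the exact permutation test of log2 CPM, with a small constant added to each CPM, gave p = 0.0286. This is the smallest that 4 against 4 samples allow (two-sided, over samples). The same test gave 0.314 for Mmp14, 0.486 for Mmp9 and 0.886 for Mmp8.

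Levels of different genes were then compared per kilobase of the gene length in the deposited table. With vehicle, Mmp3, Mmp2 and Mmp13 stood together at 13.1, 12.4 and 12.0 CPM per kilobase, and neighbours in this order overlapped between samples. Mmp14 followed at 10.0 and Mmp11 at 6.23, each apart from its neighbours. Mmp19 was at 0.285, and Mmp9, Mmp8, Mmp10 and Mmp12, at 0.155 to 0.0366, overlapped from neighbour to neighbour. With IL-1β the order of the upper 5 became Mmp3 at 587, Mmp13 at 79.2, Mmp2 at 20.2, Mmp14 at 10.5 and Mmp11 at 4.31 CPM per kilobase, with no overlap between neighbours. Mmp10 at 0.471 and Mmp12 at 0.441 could not be ordered, nor could Mmp9, Mmp19 and Mmp8, at 0.202, 0.116 and 0.0720. The order near the top with vehicle depends on the length used: per length of the principal transcript, Mmp14 came first at 23.0, and with IL-1β it followed Mmp13 at 24.1. Mmp12 then stood above Mmp10 with IL-1β.

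Summed over the 10 genes, the level per kilobase was 703.0 ± 36.9 with IL-1β and 54.43 ± 0.435 with vehicle (SD, n = 4 each), a 12.9-fold difference. It was 10.3-fold per principal transcript length and 8.02-fold without length scaling. With vehicle, and per deposited length, the shares of this sum were 24.1% ± 1.5 for Mmp3, 22.8% ± 0.89 for Mmp2, 22.1% ± 1.4 for Mmp13 and 18.4% ± 0.81 for Mmp14. The last depends on the length: Mmp14 took 32.9% per principal transcript and 33.8% without length scaling, and was then above Mmp3 (18.7% and 13.4%), Mmp2 (19.4% and 23.7%) and Mmp13 (17.2% and 18.2%). With IL-1β, Mmp3 alone made up 83.5% ± 1.1 and Mmp13 11.3% ± 0.65. The share of Mmp13 was thus lower although its level rose, and Mmp2 and Mmp14 came to 2.89% ± 0.26 and 1.5% ± 0.17. Without length scaling these last were 4.82% and 4.43%, and per principal transcript 3.09% and 3.37%, while Mmp3 stayed the most abundant at 74.6% and 81.6%. As a share of all counts in a sample, the 10 genes took 0.134 to 0.150% with IL-1β and 0.0174 to 0.0179% with vehicle.

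**Figure D3:**
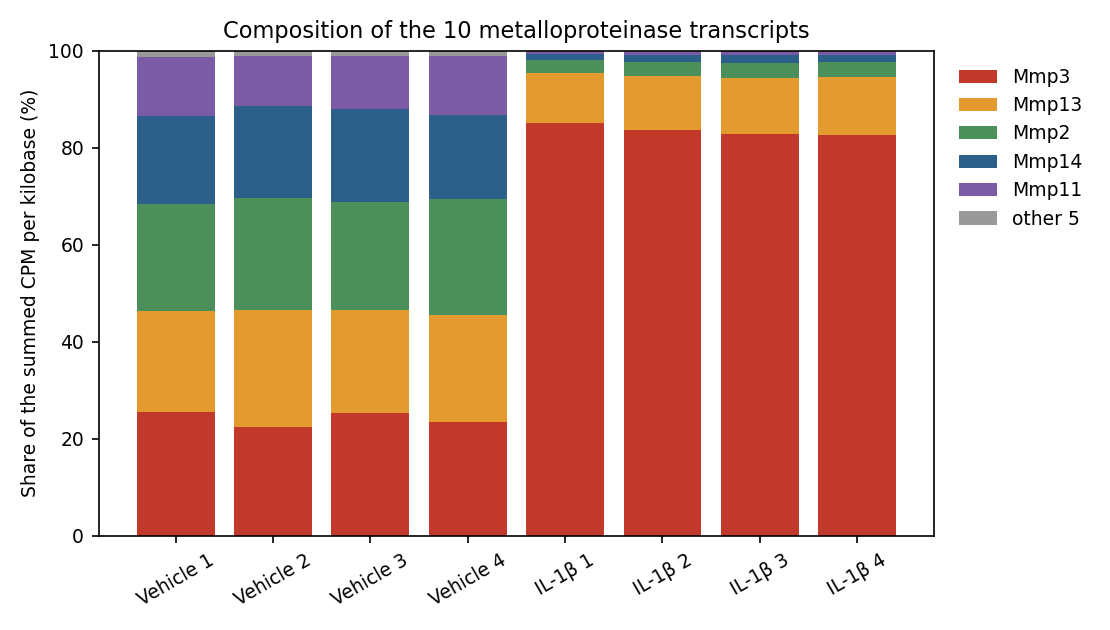
Share (%) of each MMP in the summed CPM per kilobase of the 10 MMP transcripts, with 1 stacked bar for each of the 4 vehicle and 4 IL-1β samples. Mmp3 (red) takes 22.4 to 25.4% of each vehicle bar and 82.6 to 85.0% of each IL-1β bar.

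To ask whether members responded to a different extent, the log2 ratio of counts between transcripts was taken within each sample, with 0.5 added to each count, for 12 pairs. The difference of group means was judged by a two-sided exact permutation test over samples, adjusted over the 12 pairs by Benjamini-Hochberg. The ratio of Mmp3 to Mmp13 was 2.45, 2.33, 2.29 and 2.21 with IL-1β and -0.29, -0.68, -0.33 and -0.48 with vehicle. Mmp3 thus passed from below to above Mmp13 in counts not scaled to gene length, a difference of 2.76 (SE 0.103). Per kilobase, the mean of Mmp3 with vehicle was not below that of Mmp13 (13.1 against 12.0 CPM per kilobase), and the samples overlapped. Mmp3 also gained 1.98 (SE 0.318) on Mmp12. Against Mmp10 the difference was 2.26 (SE 0.704), but 1 vehicle sample had 0 Mmp10 counts and its ratio was set by the added 0.5. With 0.25 added, an alternative chosen after seeing the data, the groups overlapped (difference 1.88, exact permutation p = 0.114), so no difference in response between Mmp3 and Mmp10 is called.

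Mmp13 gained 2.02 (SE 0.0536) on Mmp2 and 2.65 (SE 0.0739) on Mmp14, and Mmp2 gained 0.64 (SE 0.0584) on Mmp14. The 5 ratios other than Mmp3 to Mmp10, and the 5 with inhibitors and collagen below, did not overlap between the groups, each with an exact permutation p of 0.0286 and an adjusted p of 0.0312. Mmp9 to Mmp2 overlapped, with a difference of -0.39 (SE 0.458, exact permutation p = 0.400).

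Ratios of enzymes to TIMPs shifted as well. Mmp3 counts were below those of Timp1 with vehicle, at a log2 ratio of -4.29, and above them with IL-1β, at 0.65, a difference of 4.94 (SE 0.0710). Mmp13 gained 2.17 (SE 0.0570) on Timp1. Mmp2 gained 0.76 (SE 0.0334) on Timp2, the inhibitor that also takes part in pro-MMP2 activation, and Mmp14 gained 0.13 (SE 0.0380) on it. For Mmp14 to Timp2 the groups barely missed overlap, with a lowest IL-1β ratio of -3.46 and a highest vehicle ratio of -3.47. Neither gene passed the edgeR test (adjusted p = 0.233 for Mmp14 and 0.145 for Timp2). The largest distance covered after that of Mmp3 to Timp1 was from Mmp13 to Col2a1, the gene of its substrate type II collagen, whose log2 ratio was -8.45 with vehicle and -3.75 with IL-1β, a difference of 4.70 (SE 0.0501). These are ratios of counts not scaled to gene length, so a ratio that crosses 0 does not order 2 transcripts by abundance. They are not ratios of protein or activity.

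**Figure D4:**
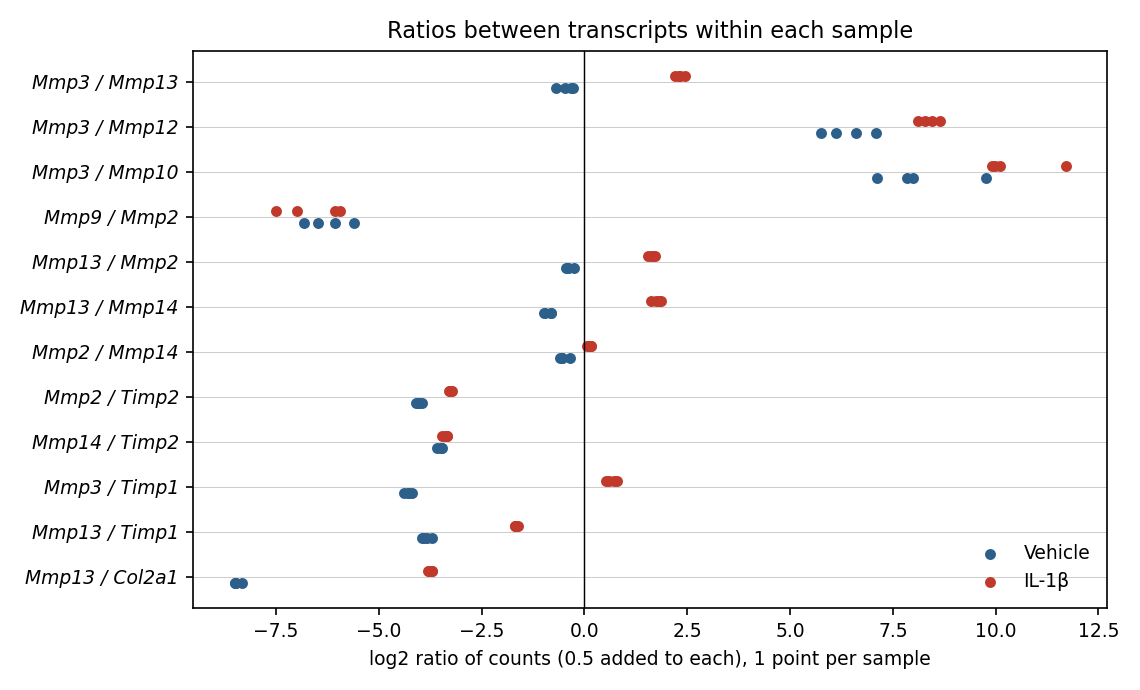
The log2 ratio of counts between 2 transcripts in each sample (0.5 added to each count), with 1 point for each of the 4 vehicle (blue) and 4 IL-1β (red) samples and 1 row per pair. The groups overlap for Mmp9 / Mmp2 and are apart in the other pairs, for Mmp3 / Mmp10 only through the count added to a 0, and the Mmp3 / Timp1 ratio moves from a mean of -4.29 to 0.65.

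Of the 10 MMPs, 5 (Mmp13, Mmp12, Mmp3, Mmp10 and Mmp8) lie in 1 cluster of 10 Mmp genes on chromosome 9 (GRCm38 chr9:7272514-7699585, 427.1 kb). Within the cluster the tested genes were Mmp13, Mmp12 and Mmp3, all DEGs, beside 5.21% of all genes tested. Mmp12 was tested only because its IL-1β samples passed the filter. The other genes of the cluster were below the filter, so no rate for the cluster can be read from these genes. Between and beyond the tested genes, Mmp1a, Mmp27, Mmp20 and Mmp7 had 0 counts in all samples, which allows up to 3 counts per sample. In the region extended by 1 Mb to each side, 39 genes were listed and 13 tested. None of the 10 flanking genes tested was a DEG, beside 5.21% of all genes tested. With so few genes, this count cannot be told from that share. The flanking gene that moved most, named after its value was seen, was Birc3, an inhibitor of apoptosis. It rose from 9.65 to 17.1 CPM (log2 fold change 0.83, SE 0.0871, adjusted p = 4.95e-09 by edgeR). Its neighbours Birc2 and Yap1 had log2 fold changes of 0.07 and 0.01 with adjusted p of 0.553 and 0.802.

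**Figure D5:**
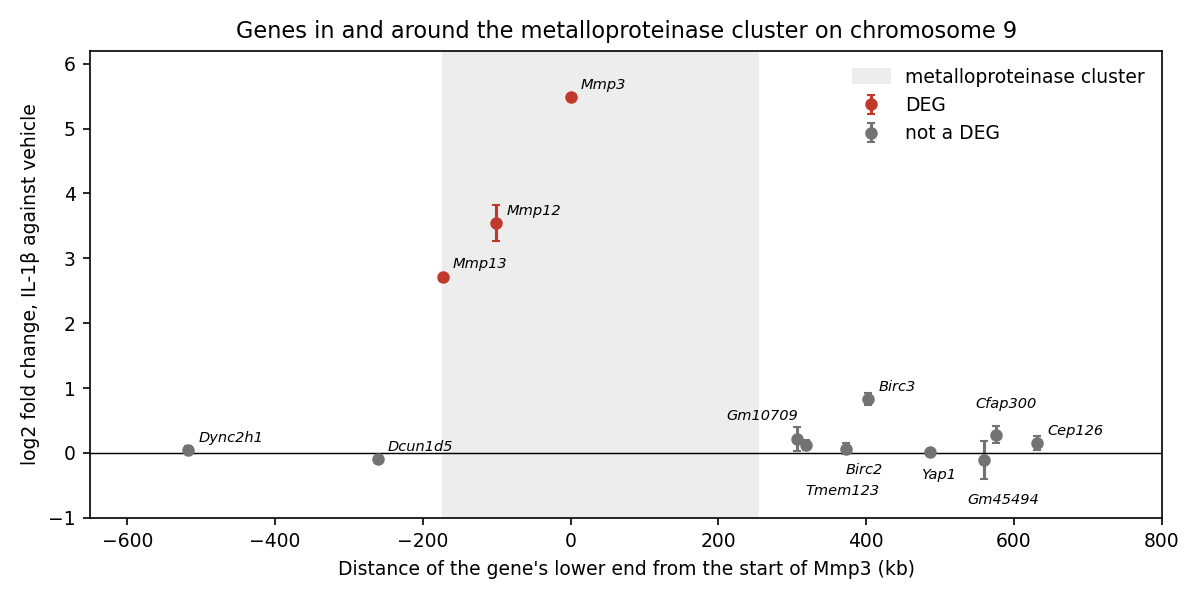
The log2 fold change (IL-1β against vehicle, bars are SE of the edgeR fit) of the 13 tested genes in and within 1 Mb of the chromosome 9 MMP cluster (grey), against the distance of each gene's lower end from the start of Mmp3. The 3 DEGs (red) are Mmp13, Mmp12 and Mmp3, at 2.72, 3.54 and 5.48, and the flanking gene with the highest value is Birc3 at 0.83.

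Of the 13 other Mmp genes of the family, 3 were tested and none was a DEG, beside 5.21% of all genes tested. With so few genes, this count cannot be told from that share. Mmp16, a membrane-type MMP, fell from 25.3 to 17.8 CPM (log2 fold change -0.51, adjusted p = 4.1e-07 by edgeR), while Mmp28 and Mmp23 had log2 fold changes of -0.14 and 0.46 and did not pass. Of 5 aggrecanases of the ADAMTS family, relatives that cleave aggrecan, 3 were tested and none was a DEG, again beside 5.21%. Adamts5 rose with a log2 fold change of 0.89, and Adamts1 and Adamts9 fell with -0.70 and -0.54. All 3 were named after their values were seen.

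Among 12 genes for inhibition and clearance of MMPs, 8 were tested, with 2 DEGs, both lower, beside 2.35% of all genes tested. The median log2 fold change was -0.41 beside -0.0012 over all genes tested. Timp3, the matrix-bound inhibitor that also blocks aggrecanases, fell from 6112 ± 219 to 2557 ± 111 CPM (SD, n = 4 each), a log2 fold change of -1.26 (SE 0.0292, adjusted p = 5.42e-24 by edgeR). Spock2, a matrix proteoglycan, fell with a log2 fold change of -1.90. Timp1 rose from 461 to 672 CPM, a log2 fold change of 0.54 (SE 0.0305, adjusted p = 7.28e-15). Timp2 was at 681 and 654 CPM (log2 fold change -0.06, adjusted p = 0.145 by edgeR) and Timp4 had 0 to 5 counts. The summed level of the list was 6369 to 6860 CPM with IL-1β and 9307 to 9911 CPM with vehicle. Without Timp3 the sum was higher with IL-1β, at 3975 to 4219 CPM against 3487 to 3588 CPM. Lrp1 was the largest part of that remainder and rose from 2065 to 2520 CPM. Reck and Mrc2 fell with log2 fold changes of -0.60 and -0.52 (these 3 were named after their values were seen). At an adjusted p below 0.05 by edgeR, 2 genes of the list were higher and 4 lower. Over all genes tested, 20.4% were higher and 19.8% lower by that measure.

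Of 18 proenzyme activators, 11 were tested, 1 was a DEG upward and 1 downward, and the median was 0.21. The shares over all genes tested were 2.86% upward and 2.35% downward. Plat, tissue plasminogen activator, rose from 0.473 to 1.71 CPM. Pcsk6, a proprotein convertase, fell from 270 to 100 CPM. Plasminogen itself, Plg, had 0 counts.

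Of 24 transcription factors described at MMP promoters, all were tested, with 5 DEGs upward, 1 downward and a median of 0.42. Over all genes tested, 2.86% were DEGs upward and 2.35% downward. Cebpd and Cebpb, C/EBP factors, rose with log2 fold changes of 2.01 and 1.30. Elf3, an ETS factor, rose from 1.12 to 2.68 CPM. Relb, an NF-κB subunit named after its value was seen, rose from 31.1 to 67.9 CPM. The DEG that fell was Fos, an AP-1 subunit, from 24.8 to 10.8 CPM (log2 fold change -1.19, SE 0.0711, adjusted p = 3.52e-14 by edgeR). The other AP-1 genes of the list, named after their values were seen, went in several directions. Fosl1 rose from 69.3 to 115 CPM, Fosl2 from 592 to 789 CPM and Junb from 135 to 189 CPM. Jun was at 120 and 122 CPM (adjusted p = 0.631 by edgeR), and Jund and Fosb fell with log2 fold changes of -0.14 and -0.93.

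Among 16 receptors and inducers, 13 were tested, with 2 DEGs in each direction and a median of 0.02. Beside them, 2.86% of all genes tested were DEGs upward and 2.35% downward. Sdc4, a heparan sulfate proteoglycan, and Il1rap, the accessory chain of the IL-1 receptor, rose with log2 fold changes of 1.19 and 1.15. The collagen-binding integrin chains Itga10 and Itga11 fell with log2 fold changes of -1.14 and -1.06.

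Of 28 genes for MMP substrates, 27 were tested, 4 were DEGs upward and 12 downward, and the median was -0.56. The shares over all genes tested were 2.86% and 2.35%. Acan, the cartilage proteoglycan aggrecan, fell from 1286 to 248 CPM and Col2a1 from 11228 to 2853 CPM. Col10a1 and Matn1, which encode type X collagen and matrilin 1, fell more steeply, from 102 to 12.7 CPM and from 37.3 to 5.41 CPM. The DEGs that rose, named after their values were seen, were Dcn (decorin), Cd44 (a hyaluronan receptor), Prg4 (lubricin) and Vcan (versican). These lists describe RNA only, and no test of a list as a whole was made.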

How the data were processed

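RNA-Seq of 4 IL-1β and 4 vehicle samples was analysed. The authors trimmed reads with cutadapt, aligned them with STAR (2.4.2a per the labels, while the methods name another version) to mm10 with GENCODE vM20, and counted them per gene with featureCounts. The deposited values are raw counts, whole numbers beside a gene length. The methods name a RUVseq batch correction, and whether it was applied before deposit is not given in the sources used here. Strand settings are not given in the sources used here.

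Counts were tested with edgeR 4.0.16 (R 4.3.3, TMM, glmQLFTest, Benjamini-Hochberg over 14404 genes, CPM above 1 in at least 4 samples), and with a fit of 32379 genes with any count for low members. CPM were scaled by TMM. The common biological coefficient of variation was 4.11%. Intervals of pooled ratios are exact, at the counting level only. Alternatives included DESeq2 1.42.0, other scalings and filters, RUVs, a replicate block and leaving out each sample. Scripts were tested on simulated data. Positions came from GENCODE vM21 on the same assembly, and promoters from RefSeq.

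The members and gene lists were chosen with earlier results of these data known. Named beyond the MMPs were at most 4 DEGs with the largest change per list, the TIMPs, Col2a1, Acan, defining markers and cluster DEGs. Others fall outside this rule and count as named after their values were seen, whether or not this is said beside them. Among these are Relb, Dcn, Cd44, Prg4, Vcan, Mmp16, Mmp23, Mmp28, Birc2, Yap1 and Plg.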

Additional observations from a re-analysis of the deposited data

How the results depend on the processing

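The directions of Mmp2, Mmp3, Mmp9, Mmp10, Mmp11, Mmp12, Mmp13, Mmp14 and Mmp19 held under every alternative that gave them a value. So did their side of the DEG threshold, with Mmp9, Mmp10 and Mmp19 judged in fits without the filter only. The fit that tests the fold threshold itself is not among these alternatives. Log2 fold changes were 5.44 to 5.52 for Mmp3, 2.69 to 2.76 for Mmp13, 3.37 to 3.77 for Mmp12 and 3.11 to 4.03 for Mmp10. The adjusted p of Mmp19 reached 0.0457 with DESeq2. Mmp8, at the floor, changed sign: its log2 fold change was -0.07, but 0.0537 with the replicate block, and it ranged from -0.37 to 0.69 when a sample was left out (0.11 and 0.03 without IL-1β replicate 1 and 2, 0.69 without vehicle replicate 1). The DEG count of 751 over all genes became 437 when the fold threshold was tested itself (glmTreat) and 1206 without the filter, and was 746 to 769 when 1 sample was left out. The 3 MMP DEGs became 5 without the filter (with Mmp10 and Mmp19) and 2 when CPM above 1 was asked in all samples, which drops Mmp12, and stayed at 3 when a sample was left out. The Mmp3 share with IL-1β (83.5%) became 74.6% without length scaling, 81.6% per principal transcript and 83.0 to 83.8% when a sample was left out. With vehicle (24.1%) it became 13.4%, 18.7% and 23.7 to 24.7%. The 11 ratios that passed became 10 with 0.25 counts added (Mmp3 to Mmp10 lost). They became 0 under the replicate block and 0 in each fit that left out a sample. In both of these settings the permutations are too few for any ratio to pass after adjustment. Replicate numbers showed no sign of pairing: samples of the same number correlated from -0.07 to 0.04 and others from -0.09 to 0.09, and with the block 751 genes were DEGs. With so few samples, this does not settle whether samples of the same number shared a mouse or culture. Depth limits Mmp8, Mmp9, Mmp10 and Mmp19.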

Other observations

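Markers of other cell types of the joint were also read, as values only. Of 8 osteoblast and hypertrophic chondrocyte markers, 5 were tested and 4 were DEGs, all lower with IL-1β, beside 2.35% of all genes tested. Ibsp, bone sialoprotein, fell from 16.1 to 1.21 CPM and Col10a1 from 102 to 12.7 CPM. Of 10 fibroblast and synovial markers, 4 were tested, of which 3 rose and 1 fell at an adjusted p below 0.05 by edgeR. Among all genes tested, 20.4% rose and 19.8% fell by that measure. The summed level of these markers was 87.7 to 92.5 CPM with IL-1β and 47.2 to 50.8 CPM with vehicle. Pdpn, podoplanin, rose from 5.85 to 28.1 CPM, Pdgfra from 27.7 to 41.4 CPM and Cd34 from 10.4 to 17.6 CPM, and Cd248, endosialin, fell from 1.62 to 0.489 CPM (Pdgfra and Cd34 were named after their values were seen). Of 10 endothelial and mural markers, 1 was tested, and Cspg4, a pericyte proteoglycan that chondrocytes also express, fell from 822 to 410 CPM.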
